A study of Mus musculus with 3 samples.

Results

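The genes described here build the lysosome: its membrane proteins and transporters, the subunits of its proton pump, and the hydrolases and activator proteins of its lumen. The list held 45 genes, chosen by name for these functions. Of these, 44 were found among the 33506 genes of the table, and Galns, the galactosamine-6-sulfatase, had no row. Gene levels are in FPKM, the count of sequenced fragments divided by transcript length and by library size, so that genes of different length can be compared. A gene's level was the sum over its transcripts, with the first row holding a value in all 3 columns taken for each transcript.

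The lysosome is the acidic compartment in which cells take apart proteins, lipids, glycans and nucleic acids taken up from outside or delivered by autophagy. The vacuolar ATPase (V-ATPase) pumps protons into it, soluble hydrolases work at the low pH, and heavily glycosylated proteins line the membrane. Macrophages, which ingest dying cells and debris, are known for many lysosomes, whereas resting T cells are small cells with few.

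RNAseq was performed on cells sorted from BALB/C mice that carried tumors of Renca, a mouse renal carcinoma line, in the kidney. The study's methods give the line injected as Renca Ch+ L+, which carries Cherry and luciferase, and no other agent or genetic change of the mice is named for these groups. The groups were type-2 macrophages (M2, F4/80hi CD11bint) and type-1 macrophages (M1, F4/80int CD11bhi) from tumors, and CD4 T lymphocytes (CD4, TCRb+ CD4+). The labels name 30 pooled tumors and 4 pooled spleens, and day 14 in one field and day 16 in another, and they place the CD4 cells in the spleen in one field and in the tumor in another. The age of the animals is not given in the sources used here. Each group had 1 library, so no difference between groups has a replicate check and no p-value is given.

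Markers of the sorted cells were examined before any lysosomal gene. Cd3e, a chain of the T cell receptor complex, was at 126 FPKM in the library labelled M2, 0.141 in CD4 and 0.131 in M1. All 13 T cell markers found were highest in the library labelled M2, where they summed to 1950 FPKM, against 19.5 in CD4 and 3.61 in M1 (12990, 25.7 and 7.51 with all rows), and Cd247 was listed at 0 in both of these. Csf1r, a receptor that defines macrophages, was at 519 FPKM in the library labelled CD4, 279 in M1 and 15.3 in M2. For Emr1, the gene of F4/80, the levels were 215, 45.3 and 9.16 FPKM in that order, and for Itgam, the gene of CD11b, they were 201, 299 and 14.7 FPKM. All 12 macrophage markers were lowest in the library labelled M2. Their sum was 6715 FPKM in CD4, 2497 in M1 and 334 in M2, and with all rows 12239, 2514 and 349 FPKM. These levels go against the labels M2 and CD4, and the libraries are therefore called "labelled CD4", "labelled M2" and "labelled M1" throughout. Each direction below is a direction between labels. The estimated depth was 58700000 to 72300000 fragments per library.

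Many lysosomal promoters are known to carry the E-box CACGTG, in its longer form TCACGTGA, to which the MiT family of transcription factors can bind. A promoter window from RefSeq (build GRCm38.p6, 250 bases before to 50 after the start) was available for 40 of the 45 genes. CACGTG, searched on both strands, which are identical for this palindrome, was present in 12 of the 40 (30%), against 8.09% of 27025 genes. TCACGTGA, which contains CACGTG and so overlaps it, was present in 5 of the 40 (12.5%), against 1.13% of all genes. Stretches around the matches are shown for these 5 genes and for Lamp1, which held the most copies of the E-box in the list, to show where the matches lie. Capitals mark CACGTG and, where it is complete, TCACGTGA. All read 5′ to 3′ on the strand of the gene.
Atp6v0d1, chr8:105566050-105566079, minus strand: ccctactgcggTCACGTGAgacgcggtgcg
Atp6v1a, chr16:44139354-44139421, minus strand: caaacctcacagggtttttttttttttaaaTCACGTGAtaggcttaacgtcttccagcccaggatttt
Cln3, chr7:126583321-126583388, minus strand: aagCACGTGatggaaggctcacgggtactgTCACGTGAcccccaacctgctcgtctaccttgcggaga
Gla, chrX:134601183-134601255, minus strand: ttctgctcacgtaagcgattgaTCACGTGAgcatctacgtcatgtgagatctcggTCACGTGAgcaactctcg
Mcoln1, chr8:3500443-3500510, plus strand: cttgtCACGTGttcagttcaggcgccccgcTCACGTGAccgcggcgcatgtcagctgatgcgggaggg
Lamp1, chr8:13159070-13159160, plus strand: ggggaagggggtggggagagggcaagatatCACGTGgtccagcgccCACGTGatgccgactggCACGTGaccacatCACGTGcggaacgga

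The Lamp1 window held 4 copies of CACGTG, and those of Cln3, Mcoln1 and Gla held 2 each. The other 6 genes with a CACGTG were Glb1, Naglu, Gaa, Sgsh, Lgmn and Arsa, each with 1 copy. In 11 of the 12 genes every copy began no farther out than position −149 from the start, with that of Atp6v0d1 beginning at −3 and running across it, and in Gla both began farther away, at positions −227 and −194. GAGGAAGT, the core letters bound by the myeloid factor PU.1, searched on both strands, was present in 2 of the 40 genes (5%), Gusb and Gla, against 3.69% of all genes. Binding was not measured in these samples, and a match describes the letters of the window only. Mitf, of the MiT family, was at 6.92 FPKM in the library labelled CD4, 4.79 in M1 and 0.488 in M2. With all rows it was at 6.92, 7.66 and 1.35 FPKM, so that CD4 and M1 changed places. Of 4 listed transcription factors of lysosomal genes, Mitf alone was found under the row rule. The others have no level here, which is not a level of 0.

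**Figure D1:**
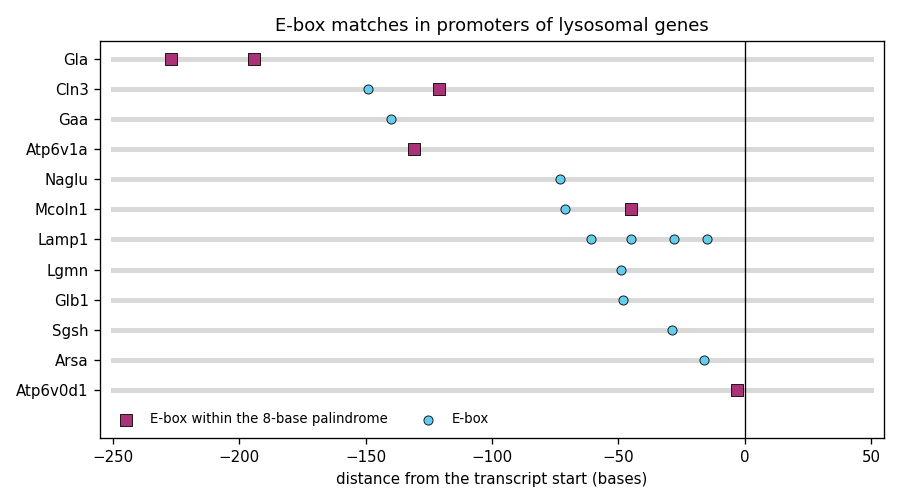
E-box copies in the promoter windows of the lysosomal genes that hold one, plotted by distance from the annotated start in bases, with the longer TCACGTGA marked apart from CACGTG alone. Copies in 11 of the 12 genes begin between position −149 and the start, and those of Gla lie farther out.

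Lysosomal genes were abundant in all 3 libraries and highest in the library labelled CD4. Over the 42 members with a mean of at least 1 FPKM, the minimum set for a comparison, the median level was 77.8 FPKM in CD4, 48.3 in M1 and 27.2 in M2. The medians over all 11841 genes past that minimum were 8.74, 8.76 and 9.30 FPKM. A level of at least 100 FPKM was reached by 18 members in CD4, 14 in M1 and 4 in M2. The order CD4, then M1, then M2 held in 32 of the 42. The exceptions to a peak in CD4 were Gm2a, Psap and Ids, highest in M1, and Acp5, highest in M2. The libraries are bulk samples, in which fewer cells of a type and less RNA per cell cannot be told apart. The remaining 2 members found, Cln3 and Fuca1, were listed at 0 in all 3 libraries and did not pass the minimum.

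A gene is called higher or lower where log2(FPKM + 1) differed by at least 1 between 2 libraries, a scale that understates differences of low genes. Between the libraries labelled CD4 and M1, 12 of 42 members (28.6%) were higher in CD4, against 6.17% of all genes tested, and 1 (2.38%) was lower, against 6.40%. The median difference of the members was 0.58, and that of all genes −0.01. In the library labelled M2, 30 members (71.4%) were lower than in CD4, against 15.2% of all genes, and 1 was higher, against 15.9%. The median difference was −1.40, and that of all genes 0.09. Against M1, 15 members (35.7%) were lower in M2, where 14.4% of all genes were, and 1 was higher, where 15.5% were. The median difference was −0.82, and that of all genes 0.07. The 15 were all among the 30, and both counts use the same M2 library. They include Mcoln1, whose only level in M2 under the rule was a listed 0. The call divides a continuous range: in the comparison of CD4 with M1, 6 members lay between 1 and 1.1 and 1 between 0.9 and 1.

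The levels of cell markers also differed between the libraries, and not all in the same direction. The 12 macrophage markers stood in M2 at a median of 3.81% of their level in CD4 and 12.8% of that in M1, while the lysosomal genes stood at 38.2% and 56.1%. Of the 12, 6 (50%) were also higher in CD4 than in M1, against 6.17% of all genes, and the median difference was 1.24. Fibroblast markers summed to 31.5 FPKM in CD4, 6.86 in M1 and 9.93 in M2. Neutrophil markers summed to 10.9, 49.7 and 227 FPKM and erythroid markers to 48.2, 43.8 and 300.2 FPKM in the same order, so that the library labelled M2 held the most of both. With all rows the neutrophil sums were 347, 419 and 950.4 FPKM. B cell markers, at 0.492, 0.406 and 47.0 FPKM, were also highest in M2. Endothelial markers summed to 3.57, 3.41 and 36.0 FPKM, of which Pecam1, a gene that leukocytes also express, held 35.03 FPKM in M2. Dendritic cell markers summed to 31.8, 132 and 131 FPKM, and kidney epithelial markers to 61.1, 89.4 and 115 FPKM. Markers listed at 0 included Camp (neutrophils) and Alas2 (erythroid cells) in CD4 and M1, Ly6g (neutrophils) and Cd79b (B cells) in M2, Pax5 (B cells) in all 3, and Umod (kidney) in M1. The part of these cells in the lysosomal differences was not tested.

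**Figure D2:**
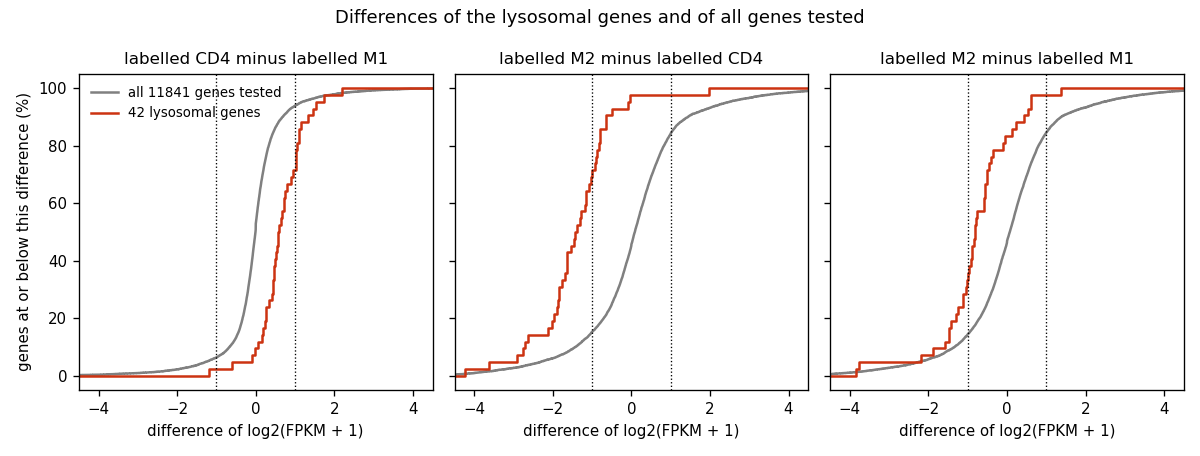
Percentage of genes at or below each difference of log2(FPKM + 1) in the 3 comparisons between libraries, drawn as cumulative curves. In each panel 1 curve is for the 42 lysosomal genes tested and 1 for all 11841 genes tested. Dotted lines mark the call of 1 in either direction. In the comparison of M2 with CD4, 30 of the lysosomal genes lie at or below −1, and Acp5 alone lies above 1.

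All 9 tested membrane proteins were highest in the library labelled CD4, and 8 of them were lowest in M2, although Laptm5 and Mcoln1 were highest in M1 once all rows were counted. Lamp1, an abundant glycoprotein of the lysosomal membrane (chromosome 8, 13159135 to 13175338 in MM9, plus strand), was at 734 FPKM in CD4, 380 in M1 and 186 in M2. Its level in M2 was 0.254 times that in CD4, a called difference of −1.97, and 0.491 times that in M1 (−1.02). Its difference between CD4 and M1, 0.95, was the one member value just under the call. Lamp2, its partner, which also serves in chaperone-mediated autophagy, was at 71.4, 42.7 and 31.0 FPKM. Only the transcript Lamp2-001 carried that level. The first complete row of Lamp2-002 was 0 and a further one was not, and with all rows summed Lamp2 reached 258, 180 and 78.9 FPKM. The order of the libraries did not change, and the difference between M2 and M1 went from −0.45 to −1.18, which is past the call.

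Cd63, a tetraspanin of late endosomes and lysosomes, was the membrane protein called between CD4 and M1. That was 1 of 9 tested (11.1%), against 6.17% of all genes called higher in CD4. Cd63 was at 186 FPKM in CD4, 55.2 in M1 and 74.8 in M2. Its level was 3.37 times higher in CD4 than in M1 (1.74), and M1 rather than M2 held its lowest level. Scarb2, the receptor that carries glucocerebrosidase to the lysosome, was at 44.1, 26.2 and 19.4 FPKM in the libraries labelled CD4, M1 and M2. Laptm5, a membrane protein of haematopoietic cells, was at 594, 430 and 337 FPKM, and its difference of −0.82 between M2 and CD4 was the single one in this group that did not reach the call. Laptm4a, a related protein found in most cells, was at 174, 106 and 71.5 FPKM. With all rows its level in M2 was 156 FPKM, and the difference from CD4 went from −1.27 to −0.16.

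The transporters of this group were lower in level. Npc1, which passes cholesterol out of the lysosome, was at 36.2 FPKM in CD4, 24.0 in M1 and 10.5 in M2, and was called lower in M2 against both (−1.69 and −1.11). Ctns, the cystine exporter, was at 20.2, 14.0 and 9.08 FPKM and was called against CD4 alone (−1.07). Mcoln1, the lysosomal calcium channel, was at 17.8 FPKM in CD4 and 12.7 in M1 and was listed at 0 in M2, where other rows of the same transcript gave 13.8 FPKM. With those rows included no comparison of Mcoln1 passed the call. Cln3, a membrane protein mutated in juvenile Batten disease, was listed at 0 throughout, but further rows held 36.7 FPKM in CD4, 19.1 in M2 and 0 in M1. In all, 8 of the 9 tested membrane proteins (88.9%) were called lower in M2 than in CD4, against 15.2% of all genes. Against M1, 3 (33.3%) were lower in M2, where 14.4% of all genes were.

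The 6 proton pump genes were lower in the library labelled M2 than in either of the others. None was called between CD4 and M1, where 6.17% of all genes were higher in CD4 and 6.40% lower, and the median difference was 0.21. All 6 were called lower in M2 than in CD4, against 15.2% of all genes. Against M1, 4 (66.7%) were called lower in M2, where 14.4% of all genes were. Atp6v1b2, a subunit of the part that hydrolyses ATP, was at 117 FPKM in CD4, 112 in M1 and 39.8 in M2. Tcirg1, the a3 subunit of the membrane part, was at 137, 121 and 43.0 FPKM. Both stood in M2 at 0.35 to 0.36 times their level in M1, with differences of −1.47 for each. Atp6ap1, an accessory subunit, was at 163, 137 and 62.4 FPKM and differed by −1.12 between M2 and M1.

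Atp6v1a, the catalytic subunit, was at 72.8 FPKM in CD4, 53.8 in M1 and 35.3 in M2, and its difference from CD4, −1.03, was near the call. Atp6v0d1, the d subunit found in most cells, was at 100.1, 90.1 and 49.5 FPKM and lay at the call itself against CD4. With all rows its difference from CD4 was −0.99, under the call. Atp6v1a and Atp6v0d1 both carry TCACGTGA in the windows shown above. Atp6v0d2, the d subunit known from osteoclasts and some macrophages, was at 4.79 FPKM in CD4, 2.11 in M1 and 0.551 in M2. Its level in M2 was 0.115 times that in CD4, the lowest ratio among the pump genes, at an estimated 82.1 fragments in M2, the fewest behind any member above 0 in that library. In CD4 it was 2.27 times its level in M1, a difference of 0.90 that passed the call with a pseudocount of 0.1 (1.15) and after rescaling (1.08). The d1 form exceeded the d2 form in FPKM in all 3 libraries.

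Of the 9 hydrolases of sphingolipids and their activators, 3 (33.3%) were called higher in CD4 than in M1, against 6.17% of all genes. Another 1 (11.1%) was lower, against 6.40%. In M2, 5 (55.6%) were called lower than in CD4, against 15.2%, and 3 (33.3%) lower than in M1, against 14.4%. Psap, the precursor of the saposins that present sphingolipids to their hydrolases (chromosome 10, 59740375 to 59765345, plus strand), was the most abundant member. It was at 2834 FPKM in CD4, 3026 in M1 and 1625 in M2, and ranked 5, 5 and 7 among all genes of those libraries. None of its comparisons was called, and the members without Psap summed to 6194, 3395 and 1847 FPKM, so that the order of the sums, which was 9028, 6421 and 3472 FPKM with it, did not rest on Psap. Gm2a, the activator that lifts ganglioside GM2 to hexosaminidase A (chromosome 11, 54911617 to 54926531, plus strand), was the one member called higher in M1 than in CD4. It was at 84.6 FPKM in CD4, 195 in M1 and 12.7 in M2, which gave −1.19 between CD4 and M1, −2.64 between M2 and CD4 and −3.83 between M2 and M1. A further row gave M2 a level of 51.8 FPKM. With it the difference from CD4 was −0.70, under the call, and that from M1 −1.89.

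Hexa, the alpha subunit of hexosaminidase A, was at 319 FPKM in CD4, 142 in M1 and 72.8 in M2, thus 2.24 times higher in CD4 than in M1 (1.16). With all rows M1 reached 163 FPKM and the difference was 0.96, under the call. Asah1, acid ceramidase, was at 91.3, 66.97 and 21.7 FPKM and was called lower in M2 against both (−2.03 and −1.58). Its coding transcript Asah1-001 held 61.4% of the level in CD4, 52.9% in M2 and 100% in M1, with the rest in a transcript that retains an intron. Gla, alpha-galactosidase A, was at 14.2, 12.0 and 4.53 FPKM and was likewise called lower in M2 against both (−1.46 and −1.24).

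Other sphingolipid enzymes had their lowest level in the library labelled M1 under the row rule. Galc, which cleaves galactosylceramide, was at 37.5 FPKM in CD4, 12.2 in M1 and 13.4 in M2, 3.07 times higher in CD4 than in M1 (1.54). Glb1, the lysosomal beta-galactosidase, was at 55.3, 26.4 and 31.2 FPKM (1.04 between CD4 and M1). Smpd1, acid sphingomyelinase, was at 11.5, 6.92 and 11.1 FPKM. Arsa, which removes sulfate from sulfatide, was at 24.7, 15.5 and 23.0 FPKM, but with all rows M1 was at 23.8 FPKM and no longer apart, with a difference of 0.05 from CD4 and M2 at −0.05 from M1. Smpd1 and Arsa differed by less than 0.1 between M2 and CD4, the closest pairs of those 2 libraries among the tested members. The leading transcript of Arsa retains an intron, and 18.8% of its exonic bases overlap a noncoding gene on the other strand, from which unstranded reads cannot be told apart.

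Glycosaminoglycan hydrolases ranged from among the largest differences to some of the smallest. Gusb, beta-glucuronidase, was at 148 FPKM in CD4, 102 in M1 and 21.8 in M2 and was called lower in M2 against both, by −2.71 and −2.18. Arsb, which removes sulfate from dermatan sulfate, was at 121 FPKM in CD4, 43.6 in M1 and 17.1 in M2. It was called in all 3 comparisons (1.46, −2.76 and −1.30), although 45.3% of its exonic bases overlap Gm17447, a noncoding gene on the other strand. Naglu, a hydrolase of heparan sulfate, was at 30.9, 17.3 and 9.31 FPKM and was called between M2 and CD4 alone (−1.63).

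Idua, alpha-L-iduronidase, was at 7.59 FPKM in CD4, 3.03 in M1 and 5.13 in M2 and was called higher in CD4 than in M1 (1.09). Ids, the iduronate sulfatase that acts before it, was at 21.4, 21.6 and 11.1 FPKM, with CD4 and M1 within 1% of each other (a ratio of 0.990). Sgsh, the heparan sulfamidase, was at 12.2, 7.73 and 7.39 FPKM and was called in no comparison. Of its exonic bases, 21.6% overlap Card14 on the other strand. None of these 3 enzymes was called between M2 and M1, where the differences were 0.60 for Idua, −0.91 for Ids and −0.06 for Sgsh.

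Among hydrolases of glycoproteins and glycogen, Man2b1, an alpha-mannosidase, was at 181 FPKM in CD4, 121 in M1 and 57.8 in M2 and was called lower in M2 against both (−1.63 and −1.05). Gaa, which digests glycogen, was at 37.8, 18.3 and 10.4 FPKM and was called in CD4 against M1 (1.01) and in M2 against CD4 (−1.77). Manba, a beta-mannosidase, was at 30.1, 22.4 and 15.4 FPKM. Neu1, a sialidase, was at 37.0, 25.2 and 23.5 FPKM. Neither passed the call in any comparison, and with all rows Neu1 in M2, 36.9 FPKM, was level with CD4. Fuca1, an alpha-fucosidase, was listed at 0 under the rule because its coding transcript had no complete row. Its partial rows held 31.7 FPKM in M2 and 12.6 in M1 and a listed 0 in CD4.

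Genes of lipid and cholesterol handling in the lumen differed little between CD4 and M1. Lipa, acid lipase, was at 82.9 FPKM in CD4, 65.6 in M1 and 44.4 in M2, and Npc2, which hands cholesterol to Npc1, was at 125, 104 and 55.6 FPKM. Lipa differed by −0.88 between M2 and CD4, under the call, and by −1.10 with all rows, past it. Npc2 was called lower in M2 than in CD4 (−1.16). With all rows its level was 365, 331 and 174 FPKM, and the difference from CD4 was then −1.07, still past the call.

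The 4 genes of protein and lipoprotein degradation were each called higher in CD4 than in M1 and lower in M2 than in CD4. The shares over all genes were 6.17% and 15.2%. Lgmn, legumain, an asparaginyl endopeptidase that activates cathepsins (chromosome 12, 103632294 to 103678023, minus strand), had the largest difference of any member between CD4 and M1. It was at 1175 FPKM in CD4, 254 in M1 and 94.8 in M2. The level in CD4 was 4.62 times that in M1 (2.20), and the level in M2 was 0.0807 times that in CD4 (−3.62). Its transcripts Lgmn-001 and Lgmn-002 shared the level evenly in all 3 libraries, with 53.6%, 50.4% and 55.02% in Lgmn-001 in CD4, M1 and M2.

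Grn, progranulin, a secreted and lysosomal protein cut into granulins, was at 741 FPKM in CD4, 347 in M1 and 201 in M2 (1.09 between CD4 and M1). Tpp1, tripeptidyl peptidase, was at 135, 53.0 and 36.9 FPKM (1.33). Ppt1, which removes palmitate from proteins, was at 132, 65.0 and 36.5 FPKM (1.01). Against M1, Lgmn alone of the 4 (25%) was called lower in M2 (−1.41), where 14.4% of all genes were. The median level of the group, 438 FPKM in CD4, 160 in M1 and 65.9 in M2, was the highest of the 8 role groups in all 3 libraries.

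The acid phosphatases went in opposite directions. Acp2, the lysosomal acid phosphatase, was at 56.8 FPKM in CD4, 27.5 in M1 and 6.71 in M2, and was called in all 3 comparisons (1.02, −2.91 and −1.89). Acp5, the tartrate-resistant acid phosphatase that marks osteoclasts and some macrophages (chromosome 9, 21931175 to 21940190, minus strand), was at 7.38 FPKM in CD4, 11.7 in M1 and 31.7 in M2. It was the only member called higher in M2, by 1.96 against CD4 and 1.37 against M1. With all rows it was at 38.8, 14.0 and 82.9 FPKM, so that M2 stayed highest (1.08 and 2.49) while CD4 and M1 changed places, with a difference that went from −0.60 to 1.41, past the call. Of 8 osteoclast markers, 6 were found, and their sum, which includes Acp5 and Atp6v0d2, was 24.2 FPKM in CD4, 30.8 in M1 and 54.1 in M2. Among them Calcr and Oscar were listed at 0 in CD4 and M2. The T cell, neutrophil, B cell and erythroid markers were highest in M2 as well, and the part of those cells in the level of Acp5 was not tested.

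The choice of rows mattered for other members too. Of the 44 found, 19 had a different level once every row was counted, and the level was over 1.5 times higher in 5 members in CD4, 8 in M1 and 11 in M2. Summed this way, 36 of 44 members were highest in CD4 and 34 lowest in M2. The members lower in M2 than in CD4 numbered 27, and those lower than in M1 numbered 16. Differences that were under the call also changed sign. Laptm5 went from 0.47 to −0.18 and Asah1 from 0.44 to −0.23 between CD4 and M1, and Laptm4a went from −0.56 to 0.56 and Neu1 from −0.10 to 0.53 between M2 and M1.

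**Figure D3:**
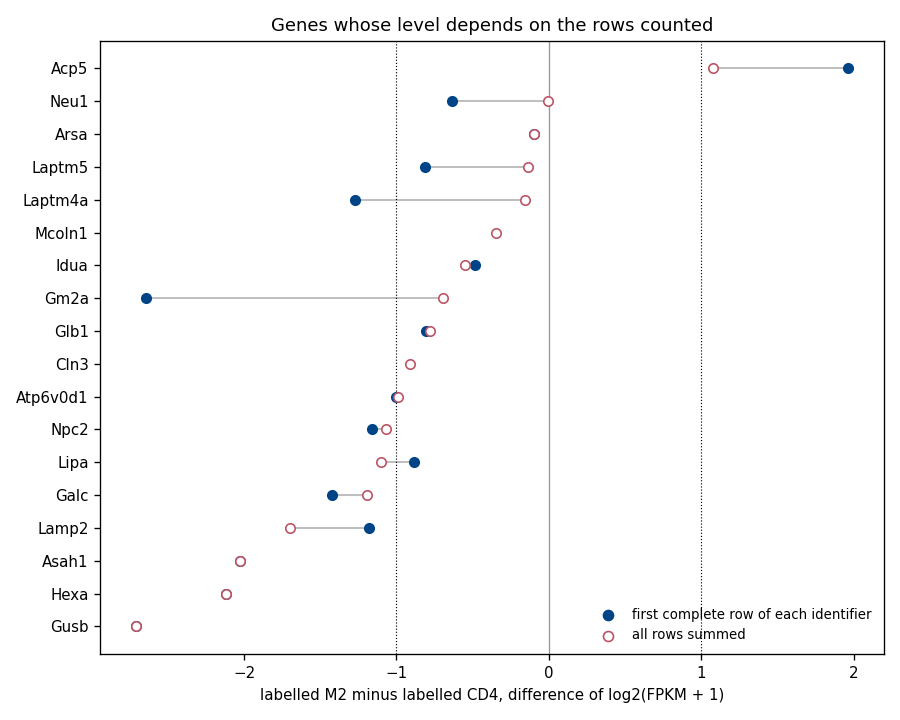
Difference of log2(FPKM + 1) between the libraries labelled M2 and CD4 for the lysosomal genes whose level depends on the rows counted, with filled points for the first complete row of each transcript and open points for all rows summed. Levels listed at 0 are not drawn, and so Fuca1 is left out. Gm2a and Laptm4a move from below −1 to above it, and Acp5 stays above 1. Atp6v0d1 moves from −1 to −0.99, and Lipa moves the other way, from −0.88 to −1.10. Mcoln1 and Cln3 have an open point alone.

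The same transcript led in all 3 libraries in 40 of the 42 tested members, and 29 members had 1 transcript above 0. Psap was the exception that could be compared. Psap-001 held 56.6% of its level in CD4, 49.4% in M1 and 51.7% in M2, with Psap-202 as the remainder, so the leading form changed in M1 by a narrow margin. In Tcirg1, Tcirg1-001 held 56.5%, 57.0% and 56.2%, and the remainder lay in a transcript that retains an intron. Cufflinks divides fragments between overlapping transcripts by a model, and these shares carry that uncertainty.

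The other genes of the pathway were taken from lists of further V-ATPase subunits, hydrolases, membrane proteins, sorting factors and transcription factors, 57 in all, of which 54 were found and 46 tested. Between CD4 and M1, 8 (17.4%) were higher in CD4, against 6.17% of all genes. Another 3 (6.52%) were lower, near the 6.40% of all genes, and the median was 0.39. In M2, 22 (47.8%) were lower than in CD4, against 15.2% of all genes, and 2 (4.35%) were higher, against 15.9%. The median was −0.97. Against M1, 16 (34.8%) were lower in M2, where 14.4% of all genes were, and 1 (2.17%) was higher, where 15.5% were. The median was −0.61. Further hydrolases (15 tested) had 11 lower in M2 than in CD4 and a median of −1.37, and further membrane proteins (11 tested) had 5 and −0.71. Further V-ATPase subunits (12 tested) had 4 and −0.67. Sorting and activation factors (7 tested) had 1 (14.3%) and −0.13, near the 15.2% of all genes. Naaa, an acid amidase of fatty acid ethanolamides, was at 220 FPKM in CD4, 304 in M1 and 16.6 in M2. Slc11a1, the metal transporter of phagosomes, was at 67.7, 48.3 and 4.41 FPKM. Pla2g15, the lysosomal phospholipase, was at 73.7, 35.1 and 6.12 FPKM.

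In this wider list, M1 held more than CD4 of Sort1, a sorting receptor (0.793 FPKM in CD4, 3.94 in M1 and 0.858 in M2). The same was true of Igf2r, the receptor that delivers hydrolases tagged with mannose-6-phosphate, at 2.56, 8.18 and 9.59 FPKM. Atp6v1e1, a pump subunit, was at 19.1, 44.1 and 21.5 FPKM. At the other end were Mcoln2, a channel related to Mcoln1, at 15.8, 3.88 and 1.43 FPKM, and Slc29a3, a nucleoside transporter of the lysosome, at 34.2, 9.62 and 8.75 FPKM. Atp6v0c, the proteolipid that forms the rotor ring of the pump, was at 336, 129 and 95.5 FPKM. Atp6v0a1, an a subunit related to Tcirg1, was at 55.9, 39.6 and 6.02 FPKM. Igf2r was highest in M2 and was called higher there than in CD4 (1.57). Also highest in M2 were Mcoln3, another channel of the family, at 0.126, 0.111 and 3.06 FPKM, and, by differences under the call, Mfsd8 at 3.01, 3.35 and 4.87 FPKM and Gnptg, a subunit of the phosphotransferase that makes the mannose-6-phosphate tag, at 12.6, 7.58 and 13.7 FPKM.

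The 13 cathepsins, the main lysosomal proteases, are not members and had a wider spread. In M2, 7 (53.8%) were lower than in CD4, against 15.2% of all genes, with a median of −2.10. Against M1, 7 (53.8%) were lower in M2, where 14.4% of all genes were, with a median of −1.19. In each comparison 2 (15.4%) were higher in M2, near the 15.9% and 15.5% of all genes. Between CD4 and M1, 2 (15.4%) were higher in CD4, Ctsf and Ctsb, against 6.17% of all genes. Ctso alone was lower (7.69%), near the 6.40% of all genes, and the median was 0.18. Ctsf was at 44.6 FPKM in CD4, 7.09 in M1 and 2.15 in M2, Ctsb was at 1116, 370 and 162 FPKM and Ctso was at 4.91, 10.99 and 6.22 FPKM. Ctsa, which protects Glb1 and Neu1 in a complex, was at 474, 270 and 104 FPKM, all higher than its partners.

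Ctss, a cathepsin of antigen-presenting cells, was at 1286 FPKM in CD4, 1137 in M1 and 116 in M2. Ctsh was at 169, 190 and 22.0 FPKM, and Ctsc, which activates granule proteases, at 127, 115 and 13.3 FPKM. The cathepsins higher in M2 were Ctsw, known from cytotoxic lymphocytes, at 0.0914, 0.0649 and 21.0 FPKM, and Ctse at 13.2, 12.2 and 69.1 FPKM. Ctsk, the cathepsin of osteoclasts, was at 10.92, 10.99 and 18.9 FPKM, a difference under the call.

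**Figure D4:**
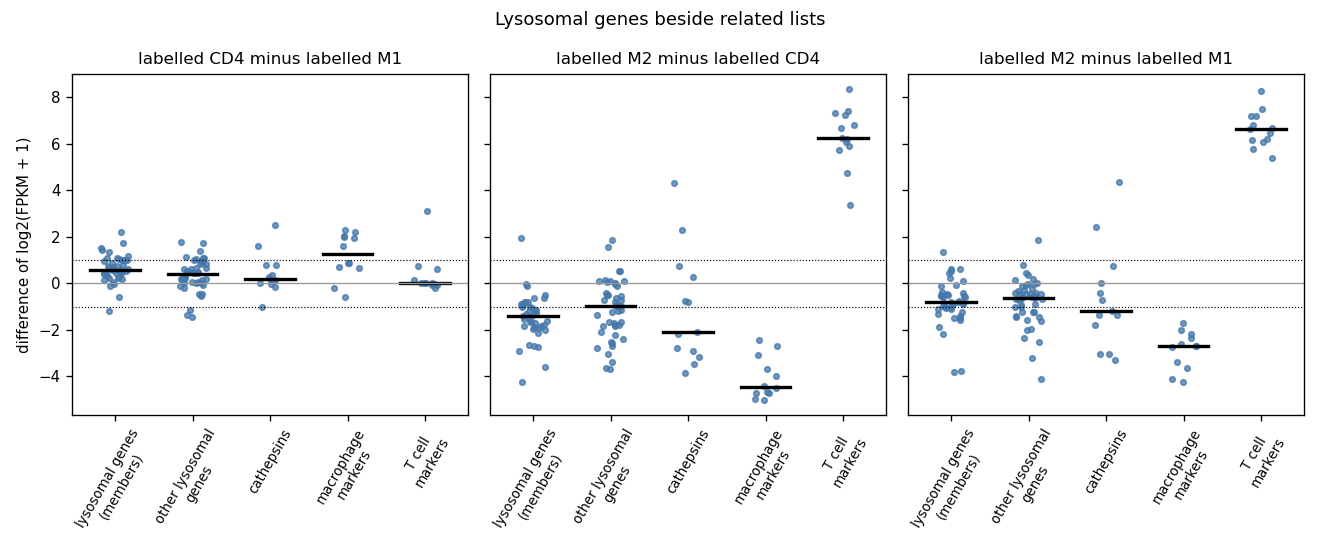
Differences of log2(FPKM + 1) of the tested members, other lysosomal genes, cathepsins, macrophage markers and T cell markers in each comparison, 1 point per gene. Bars mark the median of each list, and dotted lines mark the call of 1 in either direction. The medians between M2 and CD4 are −1.40, −0.97 and −2.10 for the 3 lysosomal lists. The median of all genes tested, 0.09, is not drawn.

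The E-box was also found in the windows of 10 of 43 other lysosomal genes (23.3%) and 4 of 9 cathepsins, and TCACGTGA in 7 of 43 (16.3%) and 2 of 9. Of the 5 members with TCACGTGA, 4 were called lower in M2 than in CD4. The share called lower was 71.4% over all tested members and 15.2% over all genes, and a link between motif and level was not tested. Atp6v0d1 lay at the call, and under it with all rows. Atp6v1a was just past the call, Gla was farther past it, and Mcoln1 was called through a listed 0 alone. Cln3 was listed at 0 under the rule and was not tested.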

How the data were processed

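RNA of 3 pooled, sorted cell populations was sequenced, 1 library each. The authors aligned paired reads to MM9 (NCBIM37) with TopHat and Bowtie. Cufflinks was then run to build transcripts, and the authors deposited FPKM per transcript in 1 table. The submitters' processing notes name Cuffdiff as well. Some transcripts have several rows and some values are dashes, and a listed 0 can be a failed estimate. Of 92519 identifiers, 97.6% matched the GENCODE annotation of NCBIM37.

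Per identifier the first row with 3 values was kept, and rows were summed per gene. Genes with a mean of at least 1 FPKM were compared as log2(FPKM + 1), called at a difference of 1, without any test. FPKM carries no depth, which was estimated from the lowest repeated values. Members and lists were chosen with earlier results of these data known. All members are named, and of the other lists the 3 highest and 3 lowest differences per comparison, with Mitf and Pecam1 added after their values were seen. Markers named were Cd3e, Csf1r, Emr1, Itgam and those at 0, except 1 marker that is not reported here by itself and is part of its list's sum. The call was also run on simulated data with a chosen spread. That run cannot show how often the call errs here, where the spread between samples is unknown. Alternatives changed the rows, scaling, pseudocount, filter and call. Python 3.11.15, numpy 2.4.6, pandas 2.3.3 and matplotlib 3.10.9 were used.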

Additional observations from a re-analysis of the deposited data

How the results depend on the processing

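No paired analysis was possible because there was a single library per group. All 3 median differences of the members moved by less than the spread between members under every alternative, and no value called under the row rule changed sign, although the uncalled difference of Acp5 between CD4 and M1 turned from −0.60 to 1.41 with all rows. Relative to counts of 12 higher and 1 lower (CD4 against M1), 1 and 30 (M2 against CD4) and 1 and 15 (M2 against M1), summing all rows gave 2 lower in CD4 than in M1, 2 higher in M2 than in CD4 and 3 higher in M2 than in M1, where Fuca1 and Cln3 entered with a library listed at 0. Taking the highest row gave 2 higher in M2 than in M1. With the call at 2, CD4 against M1 had 1 higher and 0 lower, M2 against CD4 0 higher and 8 lower, and M2 against M1 0 higher and 3 lower. With the call at 0.5, CD4 against M1 had 25 higher and 2 lower, and M2 against M1 had 4 higher and 30 lower. Rescaling each library to a common total moved the median of all genes from 0.09 to 0.26 (M2 against CD4) and from 0.07 to 0.25 (M2 against M1), and 27 and 11 members were then lower. The pseudocount of 0.1, the filters and the centring left the remaining counts within 1.5 times. Of 126 gene values, 10 crossed the call with all rows, 8 with rescaling, 4 with the leading transcript alone and 1 each with the pseudocount and the highest row. Restricting to genes above 0 in all 3 libraries, chosen after seeing the data, gave 29 and 14 lower in M2. Without replicates no spread between samples is known.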
